A study of Mus musculus with 72 samples.

Results

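The oligodendrocyte lineage in the suprachiasmatic nucleus (SCN) was followed through 8 genes, Gpr17, Bmp4, Enpp6, Pdgfra, Cspg4, Tcf7l2, Bcas1 and Sox10, matched by symbol among the 24346 gene symbols of the deposited expression tables, in which each has 1 row. They were chosen by measured FPKM values of these same libraries, with earlier results known. Which comparison was used for the choice is not recorded. The comparisons between the diets and their interaction with light are therefore given for these 8 genes as a description, with no p-value. Their p-values for light and for rhythm are exposed to the same choice, so they are a description too. The libraries came from the SCN of male C57BL/6 mice, aged 8 weeks, that spent 1 week in a light schedule and then 2 weeks on a diet within the same schedule. The schedules were 12-h light/dark cycles (LD) and constant darkness (DD). The diets were 1 without tryptophan (-Trp) and a nitrogen-matched control (Ctrl). Each diet in each schedule made a group, Ctrl or -Trp in LD and Ctrl or -Trp in DD, and each of the 4 groups had 18 libraries, 3 at each of 6 times (0, 4, 8, 12, 16 and 20 h).

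Oligodendrocyte precursor cells persist in the adult brain, where they carry the PDGF receptor alpha (Pdgfra) and the NG2 proteoglycan (Cspg4) on their surface. On their way to a myelinating cell they pass a short premyelinating stage that is marked by the G protein-coupled receptor Gpr17, by the choline-specific phosphodiesterase Enpp6 and by Bcas1. Sox10 is a transcription factor of the whole lineage. Bmp4 is a secreted ligand, found in committed precursors and also in other cell types, and Tcf7l2 is a transcription factor of WNT signalling that is high in premyelinating oligodendrocytes and in some neurons.

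In the mouse assembly GRCm38, and by GENCODE release M21, Bcas1 lies on chromosome 2 (170346991 to 170427845, minus strand), Pdgfra on chromosome 5 (75152292 to 75198215, plus), Enpp6 on chromosome 8 (46986887 to 47096762, plus) and Cspg4 on chromosome 9 (56865033 to 56899870, plus). Bmp4 lies on chromosome 14 (46383520 to 46390669, minus), Sox10 on chromosome 15 (79154908 to 79165240, minus) and Tcf7l2 on chromosome 19 (55741820 to 55933654, plus). Gpr17 overlaps Lims2 on the other strand, and Bmp4, Enpp6, Pdgfra and Bcas1 overlap annotated genes on the other strand. The library kit keeps strand, but whether the quantification used it is not stated, so a part of these values could belong to the partner. A ninth gene, the long non-coding RNA 9630013A20Rik of the list of newly formed oligodendrocyte markers, is named below beside Gpr17. It lies on chromosome 14 (84458639 to 84476424, minus), inside Pcdh17 on the other strand, and the same limit holds for it.

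Promoter sequences of RefSeq (GRCm38.p6) were searched for 5 of the 8 genes, and that of Gpr17 is not reported here. The 250 bases before the start site are shown for Enpp6, which marks the premyelinating stage, for Bmp4, whose level followed fibroblast genes, and for 9630013A20Rik. Capitals mark matches to 4 short motifs searched on both strands, CACGTG and CAGCTG, which are E-boxes, ACAAAG, the core that Sox proteins bind, and ATCAAAG, a core that TCF/LEF proteins bind.
Enpp6 (chr8:46986637-46986886, plus strand): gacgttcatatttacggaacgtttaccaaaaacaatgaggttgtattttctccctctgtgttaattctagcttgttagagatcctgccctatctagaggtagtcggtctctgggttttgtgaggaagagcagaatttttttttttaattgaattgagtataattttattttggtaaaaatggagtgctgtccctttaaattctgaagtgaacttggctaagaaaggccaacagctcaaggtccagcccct
Bmp4 (chr14:46390670-46390919, minus strand): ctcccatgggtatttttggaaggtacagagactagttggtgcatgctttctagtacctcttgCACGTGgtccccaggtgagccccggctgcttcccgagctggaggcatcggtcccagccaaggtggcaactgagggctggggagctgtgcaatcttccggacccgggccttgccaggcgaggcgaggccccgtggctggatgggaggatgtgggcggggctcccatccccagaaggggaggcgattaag
9630013A20Rik (chr14:84476425-84476674, minus strand): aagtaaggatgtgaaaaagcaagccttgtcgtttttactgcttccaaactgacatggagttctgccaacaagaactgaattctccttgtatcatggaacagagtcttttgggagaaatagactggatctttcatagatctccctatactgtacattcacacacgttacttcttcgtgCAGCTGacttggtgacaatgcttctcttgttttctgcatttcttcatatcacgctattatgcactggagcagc
The Enpp6 window held none of the 4 motifs, and neither did those of Pdgfra and Cspg4. The Bmp4 window held CACGTG once, from base -188 to base -183, as did 6.02% of 32851 RefSeq promoters of the same length. The window of 9630013A20Rik held CAGCTG once, as did 13% of promoters. Of the 2 windows of Tcf7l2, 1 held ACAAAG, on the minus strand, as did 16.5% of promoters. ATCAAAG, present in 3.21% of promoters, was in none of these windows. A match describes letters and not a bound site.

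Every value is in FPKM, fragments scaled to transcript length and to library size, so that levels can be set beside each other between genes. The number of reads behind a value is unknown. In each library 17931 to 18778 rows had a value over 0, and all 8 genes were above 0 in all 72. The libraries were placed in the column order of the study's list of oscillating genes, and not by the column names. In that order the values of all 36 control libraries equalled the printed ones, over 124 to 1939 genes each, while by name at most 2 genes of a library did. The 36 -Trp libraries have no printed values there and were placed by continuing the same shift. Results by column name are given after the diet and light comparisons, and those for rhythms with the limits. The sum of FPKM fell in 2 ranges, 403066 to 524705 in all 36 LD libraries and 317417 to 353587 in 35 of 36 DD libraries, with 411944 in the other, a -Trp DD library of 4 h (replicate 2). Light schedule and range therefore cannot be told apart. The Ctrl DD library of 12 h, replicate 1, also stood apart, with 39.1 FPKM summed over 7 SCN genes (Vip, Avp, Six6, Lhx1, Nms, Prok2 and Rorb), the lowest of the 72 sums, against medians of 351 to 518 in the 4 groups. Its 5 fibroblast genes summed to 79.6 FPKM, the highest value of the 72. The next lowest SCN sum was 51.2 FPKM, in the -Trp LD library of 20 h, replicate 3.

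Bcas1 was the most abundant of the 8 genes, at 47.6 FPKM on average over the 72 libraries, followed by Sox10 at 13.8, Gpr17 at 12.3 and Pdgfra at 10.5. Tcf7l2 averaged 5.07, Cspg4 2.49, Bmp4 1.27 and Enpp6 0.996 FPKM. The neighbours Sox10, Gpr17 and Pdgfra overlapped over the libraries, with ranges of 7.27 to 23.0, 7.06 to 18.1 and 6.08 to 13.3 FPKM, and so did Bmp4 (0.460 to 4.19) and Enpp6 (0.235 to 3.30). Tcf7l2 ranged from 1.45 to 20.3 FPKM.

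**Figure D1:**
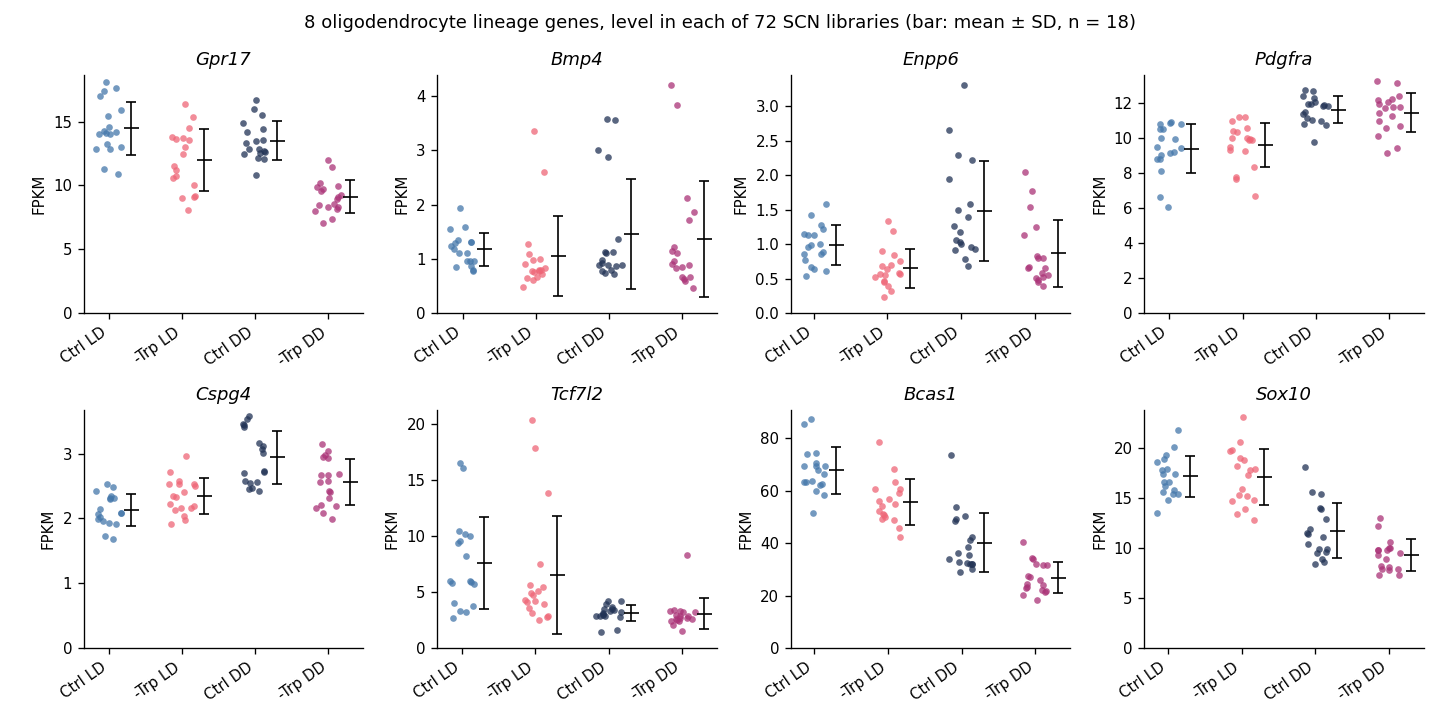
FPKM of each of the 8 genes (vertical axis from 0) in the 18 libraries of each of the 4 groups, 1 point a library, with the mean and SD (n = 18) as a bar. Gpr17 and Bcas1 were lowest in -Trp DD, and single libraries of Bmp4 (up to 4.19 FPKM) and Tcf7l2 (up to 20.3 FPKM) lay far above the rest.

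Gpr17, Enpp6 and Bcas1, known as markers of the premyelinating stage, were called in LD and again in DD, all 3 lower on the -Trp diet. In these libraries, however, Enpp6 and Bcas1 varied with the genes of myelinating oligodendrocytes (r = 0.88 and 0.95), and Gpr17 did not (r = 0.10). Tcf7l2, also high in premyelinating oligodendrocytes, was called in neither schedule. The precursor receptor gene Pdgfra differed by at most 0.06 on the log2 scale in either. Cspg4, the other precursor marker of the 8, and Sox10 were called in DD alone, lower on the -Trp diet by 0.17 and 0.30. The fall in DD was therefore not confined to the 3 premyelinating markers. By column name all 3 were instead higher on the -Trp diet in DD, Gpr17 by 0.28 and Bcas1 by 0.86, both called, and Enpp6 by 0.10, not called. In LD by name Enpp6 was higher by 0.55, called. Gpr17 and Bcas1 stayed lower there, by 0.09, not called, and by 0.43, called. A gene is called where the limma adjusted p, over all genes tested, was under 0.05. In LD 3 of the 8 genes were called, against 1.11% of 14202 genes tested, and in DD 5 of 8, against 13.4% of 14484 genes. When all 72 libraries were fitted together, 1 of the 8, Gpr17, was called in LD, against 140 of 14425 genes, and Enpp6 and Bcas1 were not. Because the genes were chosen with results in view, these shares are no evidence about the set. In bulk tissue, fewer cells of a type and less RNA per cell cannot be told apart. Differences below are -Trp minus Ctrl on the scale of log2(scaled FPKM + 0.5), which understates changes of low genes, with their standard error and 95% interval. They are relative to a median over all genes of 0.003 in LD and 0.01 in DD.

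Gpr17 in DD had the lowest, median and highest value of 10.8, 13.1 and 16.7 FPKM on the Ctrl diet and of 7.06, 9.02 and 12.0 FPKM on the -Trp diet. Of the 18 -Trp libraries, 16 were below the lowest Ctrl library, and at each of the 6 times all 3 -Trp libraries were below all 3 Ctrl libraries. The difference was -0.54 ± 0.05 (SE), with an interval of -0.63 to -0.45. In LD the values were 10.9, 14.1 and 18.1 FPKM on the Ctrl diet and 8.10, 12.0 and 16.4 FPKM on the -Trp diet. The groups overlapped more than in DD, with 7 of 18 -Trp libraries below every Ctrl library. At 4 of the 6 times the 3 libraries of each diet did not overlap. The difference was -0.26 ± 0.05, with an interval of -0.35 to -0.16.

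Enpp6, which was near the lower limit of the values tested, had 0.691, 1.22 and 3.30 FPKM in DD on the Ctrl diet and 0.393, 0.661 and 2.05 FPKM on the -Trp diet. In LD it had 0.534, 0.973 and 1.58 FPKM on the Ctrl diet and 0.235, 0.577 and 1.34 FPKM on the -Trp diet. The groups overlapped in both schedules, and the -Trp mean was lower at 5 of 6 times in each. The difference was -0.53 ± 0.14 in DD (-0.82 to -0.24) and -0.36 ± 0.08 in LD (-0.53 to -0.19). Without the Ctrl LD library of 12 h, replicate 2, it was -0.33 in LD and no longer called.

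Bcas1 had 29.2, 35.8 and 73.7 FPKM in DD on the Ctrl diet and 18.2, 25.2 and 40.3 FPKM on the -Trp diet, with 12 of 18 -Trp libraries below every Ctrl library. The highest Ctrl value was that of the 12 h library that stood apart. In LD it had 51.6, 67.2 and 87.4 FPKM on the Ctrl diet and 42.2, 54.6 and 78.7 FPKM on the -Trp diet, so that the groups overlapped. The difference was -0.55 ± 0.10 in DD (-0.76 to -0.34) and -0.26 ± 0.06 in LD (-0.39 to -0.14). Without the 12 h library it was -0.49 ± 0.08 in DD, that of Enpp6 -0.46 ± 0.13 and that of Gpr17 -0.55 ± 0.05, and all 5 genes remained called.

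**Figure D2:**
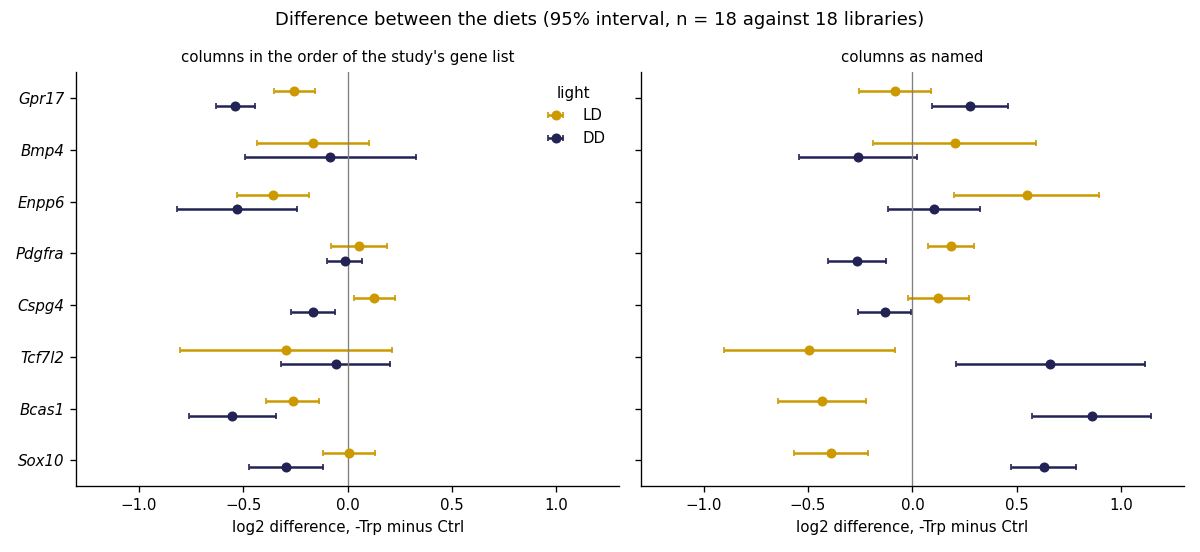
Log2 difference between the diets (-Trp minus Ctrl, horizontal axis) of the 8 genes in LD and DD, points with 95% intervals, 18 against 18 libraries; left with the columns in the order of the study's gene list, right with the columns as named. On the left Gpr17, Enpp6 and Bcas1 lie below 0 in both schedules, and on the right Gpr17, Bcas1 and Sox10 lie above 0 in DD.

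The precursor receptor genes Pdgfra and Cspg4 were not called in LD, and Cspg4 was called in DD. Pdgfra had 9.81, 11.9 and 12.8 FPKM in DD on the Ctrl diet and 9.18, 11.8 and 13.3 FPKM on the -Trp diet, and medians of 9.47 and 9.96 FPKM in LD. The groups overlapped over nearly their whole range. Its differences were -0.01 ± 0.04 in DD, with an interval of -0.10 to 0.07, and 0.06 ± 0.07 in LD, with an interval of -0.08 to 0.19. Cspg4 moved in opposite directions. In DD it had 2.42, 2.87 and 3.58 FPKM on the Ctrl diet and 1.997, 2.57 and 3.14 FPKM on the -Trp diet. In LD it had 1.68, 2.08 and 2.52 FPKM on the Ctrl diet and 1.91, 2.34 and 2.97 FPKM on the -Trp diet. The difference was -0.17 ± 0.05 in DD, where it was called, and 0.13 ± 0.05 in LD, where it was not. The call in DD was lost when any of 12 of the 36 libraries was left out, with differences between -0.18 and -0.15 over all 36 omissions.

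Sox10 had 8.36, 11.2 and 18.1 FPKM in DD on the Ctrl diet and 7.27, 9.38 and 12.9 FPKM on the -Trp diet. The groups overlapped, with 7 of 18 -Trp libraries below every Ctrl library. In LD its medians were 17.0 FPKM on the Ctrl diet and 17.5 FPKM on the -Trp diet. The difference was -0.30 ± 0.09 in DD (-0.47 to -0.12), where it was called, and 0.01 ± 0.06 in LD (-0.12 to 0.13). Bmp4 was not called in either schedule, at -0.08 ± 0.20 in DD and -0.16 ± 0.13 in LD, and its medians were 0.952 and 0.939 FPKM in DD on the Ctrl and -Trp diets and 1.15 and 0.797 FPKM in LD. Tcf7l2 was not called either, at -0.06 ± 0.13 in DD and -0.29 ± 0.25 in LD. The intervals of both genes were wide, -0.49 to 0.33 for Bmp4 in DD and -0.80 to 0.21 for Tcf7l2 in LD.

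The diet differences in LD and DD were set against each other in 1 fit of all libraries, as the difference in LD minus that in DD. Gpr17 (0.28 ± 0.07) and Cspg4 (0.29 ± 0.07) were called, 2 of 8 genes, against 7.69% of 14425 genes. The -Trp diet thus went with a smaller difference of Gpr17 in LD than in DD, and the value of Cspg4 joins a positive difference in LD to a negative one in DD. Sox10 (0.30 ± 0.11), Bcas1 (0.29 ± 0.12) and Enpp6 (0.17 ± 0.17) were not called. With the columns as named, 5 of 8 genes were called in LD, against 65.5% of genes, and 5 in DD, against 70.8%. In that order Gpr17 differed by -0.09 in LD, not called, and by 0.28 in DD, and the directions of Bcas1, Sox10 and Tcf7l2 in DD were also turned, to 0.86, 0.63 and 0.66, all called. In LD by name Sox10 was at -0.39, called, and Bmp4 at 0.20, not called. The interaction by name turned for Gpr17 (-0.36), Bcas1 (-1.29), Sox10 (-1.02) and, not called, Bmp4 (0.46).

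Other genes of the lineage were taken from lists of markers, and their adjusted p-values are those of limma over all genes. Beside the counts of every list stands the share of all genes called in either direction, 1.11% in LD and 13.4% in DD. Of 10 markers of newly formed oligodendrocytes, 1 fell in LD and 5 in DD, none rose, and the median difference of the list was -0.06 in LD and -0.18 in DD. The long non-coding RNA 9630013A20Rik had 0.619, 0.920 and 1.51 FPKM in DD on the Ctrl diet and 0.112, 0.374 and 0.661 FPKM on the -Trp diet, so that the groups barely overlapped. It fell by 0.75 ± 0.09 on the log2 scale in DD (adjusted p = 2.89e-06, limma) and by 0.47 ± 0.08 in LD (0.00112). In DD it passed the filter of 0.5 FPKM only through the Ctrl libraries, with means of 0.949 FPKM there and 0.373 FPKM on the -Trp diet. The result for this low gene in DD is therefore a description. Fyn, a kinase of early myelination, fell by 0.22 ± 0.04 in DD (0.000693), from a median of 24.7 to 20.6 FPKM, and so did Itpr2, an inositol trisphosphate receptor, by 0.20 ± 0.04 (0.00178). Cnksr3 and Tmem163 fell in DD by 0.20 each (0.0267 and 0.0487).

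Of 13 precursor markers, Olig1 and Olig2, transcription factors of the lineage, fell in DD, by 0.20 ± 0.06 (limma adjusted p = 0.0233) and 0.19 ± 0.06 (0.0264), and Tmem100 fell in LD by 0.27 ± 0.06 (0.0266). The medians of this list were -0.06 in LD and -0.11 in DD, and its 2 of 13 called in DD are near the 13.4% of all genes. Of 26 genes of myelinating oligodendrocytes, 2 fell in LD and 7 in DD, none rose, and 23 had a negative difference in each, with medians of -0.14 and -0.22. In LD these were Ugt8a, an enzyme of galactolipid synthesis, which fell by 0.38 ± 0.09 (limma adjusted p = 0.0337), and Car2, carbonic anhydrase, which fell by 0.30 ± 0.06 (0.0065). In DD Ugt8a fell by 0.40 ± 0.11 (limma adjusted p = 0.0196) and Mag, a myelin-associated glycoprotein gene, by 0.38 ± 0.12 (0.0355). Fa2h, the fatty acid hydroxylase of myelin lipids, fell by 0.36 ± 0.12 in DD (0.0424), and the receptor gene Gpr37 by 0.34 ± 0.07 (0.00774).

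Among 15 transcription factors of the lineage none was called in LD and 4 fell in DD, Olig1, Olig2, Sox8, the relative of Sox10, by 0.22 ± 0.04 (limma adjusted p = 0.00263), and Myrf, the regulator of myelin genes, by 0.38 ± 0.10 (0.0157). Olig1, Olig2 and Myrf were also counted in the lists above. Of the other genes of BMP signalling, 20 of 21 were tested and none was called in either schedule (limma). Their median differences were -0.03 in LD and 0.02 in DD. Of 14 other WNT pathway genes 10 were tested, and Apcdd1, an inhibitor of WNT signalling, was the 1 that was called, falling by 0.27 ± 0.06 in LD (limma adjusted p = 0.00938) and by 0.27 ± 0.06 in DD (0.00735). In DD it ranged from 2.59 to 5.57 FPKM in Ctrl libraries and from 2.35 to 4.10 FPKM in -Trp libraries. Of 5 PDGF ligands and receptors, Pdgfb fell in DD by 0.21 ± 0.07 (limma adjusted p = 0.0427).

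Markers of other cells were compared in the same way. Of 8 astrocyte genes the water channel gene Aqp4 fell in LD by 0.35 ± 0.09 (limma adjusted p = 0.0318) and in DD by 0.22 ± 0.07 (0.0288). The microglial receptor gene Cx3cr1 fell in DD by 0.22 ± 0.06 (0.0206), the pericyte gene Rgs5 in LD by 0.40 ± 0.08 (0.00447) and the pericyte gene Abcc9 in DD by 0.14 ± 0.05 (0.0398), while it was too low to be tested in LD. No gene of the lists of endothelium, fibroblast, ependyma, neuron or SCN markers was called in either schedule by limma, and neither was any of the 2 of 6 genes of dividing cells that were tested. Some of these lists still shifted. In LD all 5 endothelial and all 4 ependymal genes were lower on the -Trp diet, with medians of -0.38 and -0.33. In DD these medians were -0.08 and 0.34, with all 4 ependymal genes higher. The medians of the fibroblast, neuron and SCN lists were 0.02, 0.05 and -0.11 in LD and -0.17, -0.09 and 0.10 in DD. The summed level of the 26 myelin genes had medians of 1923 FPKM in Ctrl DD (1429 to 4249) and 1590 FPKM in -Trp DD (1173 to 2897), and of 3104 (2503 to 4256) and 2890 FPKM (2104 to 4121) in LD. When the mean log2 level of these 26 genes was added to the fit, Gpr17 differed by -0.56 ± 0.05 in DD and by -0.20 ± 0.05 in LD, and Bcas1 by -0.36 ± 0.03 and -0.15 ± 0.04. In that fit Enpp6 differed by -0.27 ± 0.06 in DD and by -0.22 ± 0.07 in LD. Then 4 of the 8 genes were called in DD, against 1492 of 14484 genes. Gpr17 was the 1 called in LD, against 325 of 14202 genes. The 26 genes themselves differed between the diets, and their part in the result was not tested further.

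Between the light schedules most genes differed. Among Ctrl libraries 6 of the 8 genes were called, against 78.8% of 14426 genes, and among -Trp libraries 7, against 79.5% of 14403 genes, shares near those of all genes. Differences here are LD minus DD, and the p-values of the 8 genes describe genes chosen from these same libraries. On both diets Bcas1 was higher in LD, by 0.67 ± 0.10 on the Ctrl diet (limma adjusted p = 2.07e-07) and by 0.96 ± 0.08 on the -Trp diet (1.82e-12), with group medians of 67.2 against 35.8 and of 54.6 against 25.2 FPKM. Sox10 was higher by 0.45 ± 0.09 (limma adjusted p = 1.67e-05) and 0.76 ± 0.06 (1.24e-13), and Tcf7l2 by 0.93 ± 0.18 (1.59e-05) and 0.70 ± 0.22 (0.00424). Of the 26 myelin genes, 20 were called higher in LD among Ctrl libraries and 21 among -Trp libraries, and none was called lower. Pdgfra and Cspg4 went the other way. Pdgfra was lower in LD, by 0.40 ± 0.05 (limma adjusted p = 7.8e-09) and 0.33 ± 0.06 (2.29e-06), and Cspg4 by 0.47 ± 0.05 (7.97e-10) and 0.18 ± 0.05 (0.00333). The 13 other precursor markers went both ways, with 5 called higher and 3 lower in LD among Ctrl libraries and 6 higher and 4 lower among -Trp libraries, and Olig1 was higher by 0.96 among Ctrl libraries. Enpp6 was lower in LD, by 0.44 ± 0.13 (limma adjusted p = 0.00295) and 0.26 ± 0.12 (0.0434). The second of these calls was lost when any of 16 of 36 libraries was left out. On FPKM as deposited, without scaling, Enpp6 (-0.21) and Cspg4 (-0.10) were not called on the -Trp diet. Gpr17 differed by -0.01 ± 0.04 on the Ctrl diet, with an interval of -0.10 to 0.08, and by 0.27 ± 0.06 on the -Trp diet (limma adjusted p = 0.000203). All of these comparisons coincide with the 2 ranges of the FPKM sum. With the columns as named, the light difference on the -Trp diet had the reverse sign for all 8 genes, and on the Ctrl diet Gpr17 was at 0.26, called, and Cspg4 at 0.083, not called.

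The study called oscillating genes with JTK_CYCLE, a rank test against cosine shapes of a 24 h period, at a p-value under 0.05, and the same test was applied here to each group. Among Ctrl LD libraries 1 of the 8 genes oscillated, against 8.59% of 20593 rows, and in -Trp LD 3, against 8.95% of 20616. None did in Ctrl DD, against 5.86% of 20892, or in -Trp DD, against 1.69% of 20904. The 8 genes were chosen from these same libraries, so their counts and p-values for rhythm are a description. Gpr17 oscillated in LD on both diets (p = 0.00291 and p = 2.13e-05, exact null distribution, Bonferroni-adjusted over 6 lags). Its mean in Ctrl LD was lowest at 4 h, at 12.5 ± 1.06 FPKM (SD, n = 3), and highest at 16 h, at 16.4 ± 1.87, with 12.6 ± 1.59 at 8 h and 15.9 ± 2.06 at 20 h within the spread of these. On the -Trp diet it was lowest at 4 h, at 9.82 ± 1.24, and highest at 20 h, at 15.4 ± 0.93. A cosine curve put the peak at 19.1 h and 19.4 h, in the dark phase, with log2 amplitudes of 0.21 and 0.35. Gpr17 stayed under 0.05 in all 18 omissions of 1 library on each diet.

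In DD the p-value of Gpr17 was 0.0916 for Ctrl libraries and 0.177 for -Trp libraries (exact null distribution). On the Ctrl diet it fell to 0.0303 without replicate 2 and to 0.00839 without replicate 3 of 12 h, and on the -Trp diet to 0.0405 without replicate 3 of 8 h (exact null distribution). Enpp6 and Sox10 oscillated in -Trp LD (p = 0.000628 and p = 0.000265, exact null distribution), both in all 18 omissions, and had p = 1 in Ctrl LD by the same exact distribution. Enpp6 in -Trp LD fell from 1.08 ± 0.33 FPKM at 0 h to 0.339 ± 0.12 at 12 h, and Sox10 from 21.1 ± 1.67 at 0 h to 13.6 ± 1.05 at 16 h (SD, n = 3). Bcas1 had p = 0.0568 there (exact null distribution), and p-values of 0.0303, 0.0224 and 0.0405 without replicate 1 or 3 of 8 h or replicate 2 of 16 h. After Benjamini-Hochberg adjustment over all rows, Gpr17 (0.011) and Sox10 (0.043) stayed under 0.05 in -Trp LD, Enpp6 had 0.0668, and Gpr17 in Ctrl LD had 0.217 (exact null distribution). On median-of-ratios FPKM the adjusted value of Sox10 in -Trp LD was 0.0842 and that of Gpr17 0.0288 (exact null distribution).

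**Figure D3:**
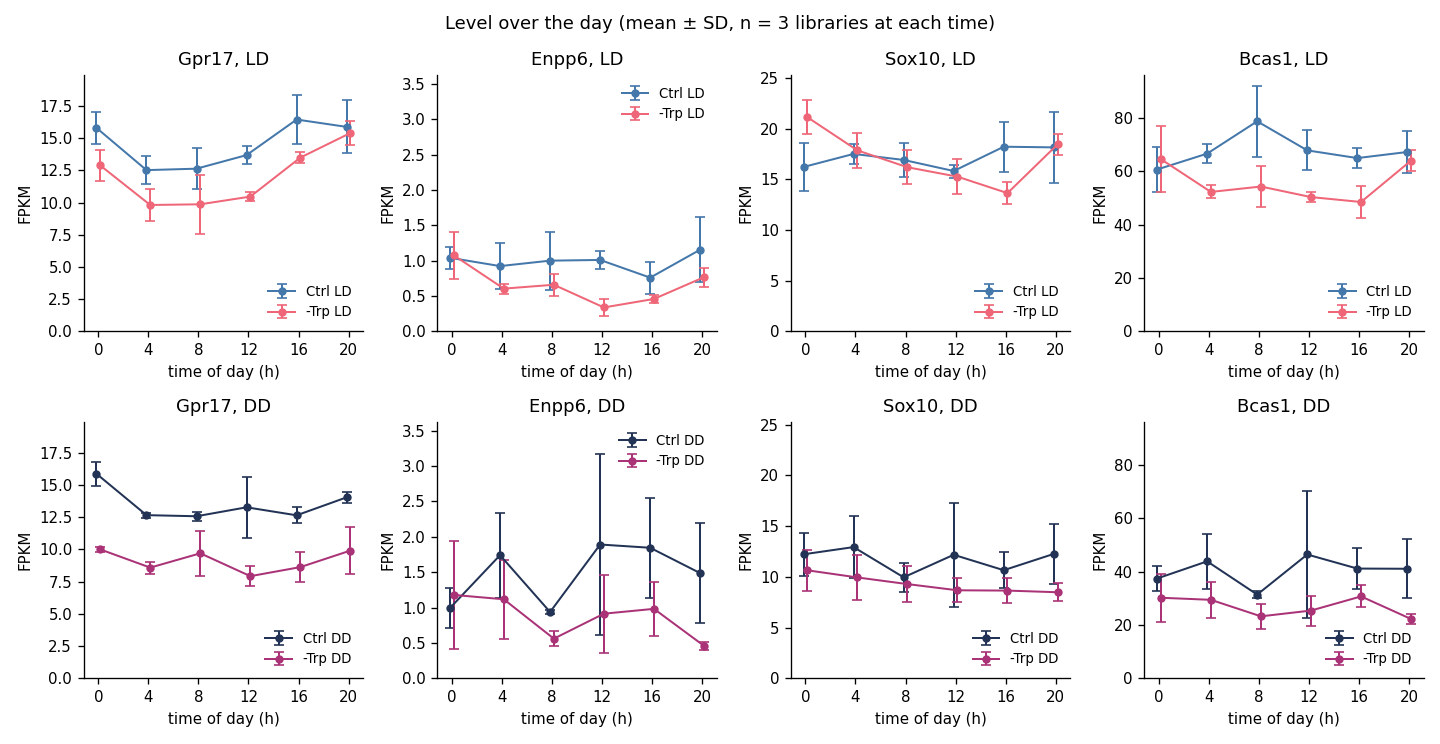
Mean FPKM (vertical axis from 0, SD bars, n = 3 libraries at each time) against time of day in hours for Gpr17, Enpp6, Sox10 and Bcas1, above in LD and below in DD, with both diets in each panel. Gpr17 in LD was lowest at 4 h on both diets, and in DD the -Trp means lay under the Ctrl means at all 6 times.

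An oscillation on 1 diet alone does not show that the diets differ. The difference in rhythm was tested with limma as the change of the cosine curve between the diets. No gene of the 14202 tested was called in LD (0%), where 456 had an unadjusted p under 0.05, and 5 of 14484 were called in DD (0.0345%), with 990 under 0.05 unadjusted. None of the 8 genes was called in either schedule. In LD Bcas1 (0.0077), Sox10 (0.0105) and Bmp4 (0.0343) had an unadjusted p under 0.05 (limma). The change was a vector of 0.25 for Sox10, 0.28 for Bcas1, 0.29 for Enpp6 and 0.14 for Gpr17 in LD on the log2 scale, each with an adjusted p of 0.9997 (limma).

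The 8 genes did not vary together as a set. After the mean of each group and time was taken out, the deviations were correlated between genes over the 72 libraries, as a description, since the libraries share a dissection and a scale. Bcas1, Enpp6 and Sox10 formed a cluster, with r = 0.82 between Enpp6 and Bcas1, 0.81 between Bcas1 and Sox10 and 0.63 between Enpp6 and Sox10. Bmp4 had r = 0.56 with Enpp6 and 0.55 with Bcas1. Gpr17 had between -0.10 and 0.36 with the other 7. Over the 28 pairs r lay between -0.15 and 0.82, and 5 pairs were above 0.5.

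**Figure D4:**
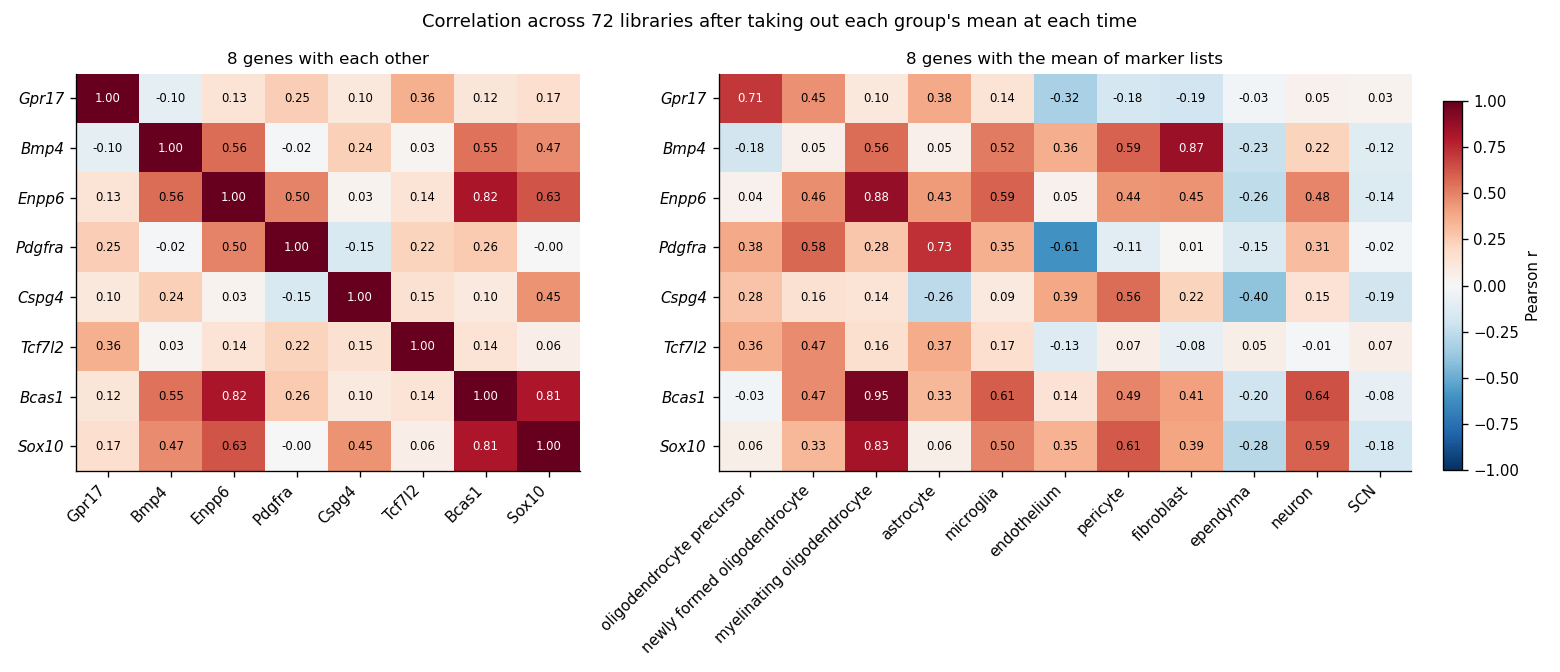
Pearson r over 72 libraries of the deviations from the mean of each group and time, between the 8 genes (left) and between each gene and the mean standardized deviation of marker lists (right), on a colour scale from -1 to 1. Bcas1, Enpp6 and Sox10 go with the myelin genes (0.83 to 0.95), Gpr17 with the other precursor genes (0.71) and Bmp4 with the fibroblast genes (0.87).

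Bcas1, Enpp6 and Sox10 followed the genes of myelinating oligodendrocytes, with r = 0.95, 0.88 and 0.83 to the mean of the 26 genes. Bcas1 was closest to Mbp, the myelin basic protein gene (0.97). Gpr17 had r = 0.10 to the myelin genes and 0.71 to the 13 other precursor genes. With the 10 markers of newly formed oligodendrocytes Gpr17, Enpp6 and Bcas1 had lower values, r = 0.45, 0.46 and 0.47. The 10 genes most like the mean of the 8 were Pkp4 (0.88), Fa2h (0.88), Slc44a1 (0.87), Ttyh2 (0.87), Rassf2 (0.87), Gltp (0.87), Itgb4 (0.87), Pacs2 (0.86), Myrf (0.86) and Myo1d (0.85), out of 13234 genes that averaged 1 FPKM or more. The 5 most like Gpr17 were Gbf1 (0.67), Kctd20 (0.65), Clpb (0.62), Thrap3 (0.62) and Dhx8 (0.62).

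Pdgfra and Cspg4, both precursor markers, had r = -0.15 with each other. Pdgfra followed the astrocyte genes (0.73) and, in the opposite direction, the endothelial genes (-0.61). Cspg4, which pericytes also express, had its highest value among cell type lists with the pericyte genes (0.56), and r = 0.28 with the precursor genes. Sox10 and Bmp4 had higher values with the pericyte genes (0.61 and 0.59). The genes closest to Cspg4, named after their values were seen, were Rgp1 (0.81), Tpcn1 (0.80) and Bag6 (0.77). Those closest to Pdgfra, named likewise, were Usp32 (0.89), Fam171b (0.88) and Frrs1l (0.88). None of these is in the astrocyte or pericyte list.

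The highest values of Bmp4 and Tcf7l2 lay in a few libraries each. Bmp4 was above 2 FPKM in 9 libraries, and in all 9 the 5 fibroblast genes (Col1a1, Col1a2, Col3a1, Dcn and Lum) summed to more than 20 FPKM, as they did in 20 of the 72 libraries. The 2 highest values, 4.19 and 3.83 FPKM, were in the -Trp DD libraries of 16 h (replicate 3) and 4 h (replicate 1), with fibroblast sums of 44.0 and 47.5 FPKM, against a median of 9.24 over all libraries. The genes closest to Bmp4, named after their values were seen, were Emp3 (0.94), Ogn (0.94), Thbd (0.93), Prg4 (0.93) and Slc13a4 (0.93). In LD the fibroblast sum ranged from 5.38 to 16.5 FPKM on the Ctrl diet and from 5.71 to 29.0 on the -Trp diet, in DD from 7.53 to 79.6 and from 9.61 to 47.5, and none of its genes was at 0 in most libraries. Its part in the level of Bmp4 was not tested.

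Tcf7l2 was above 12 FPKM in 5 libraries, all of them in LD. In all 5 Ntng1, which encodes netrin G1 of axons, was above 9 FPKM, as it was in 8 of the 72 libraries. The highest values were 20.3 FPKM in -Trp LD at 8 h (replicate 3), 17.9 in -Trp LD at 16 h (replicate 1) and 16.6 in Ctrl LD at 8 h (replicate 2), and other libraries of the same times were as low as 4.11, 2.53 and 2.71 FPKM. The genes closest to Tcf7l2, named after their values were seen, were Ntng1 (0.88), Plekhg1 (0.85), Vav3 (0.80), Lef1, its relative in WNT signalling (0.79), and Inpp5a (0.79), while its r with the precursor genes was 0.36 and with the myelin genes 0.16. What these libraries held beside the SCN was not tested.

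**Figure D5:**
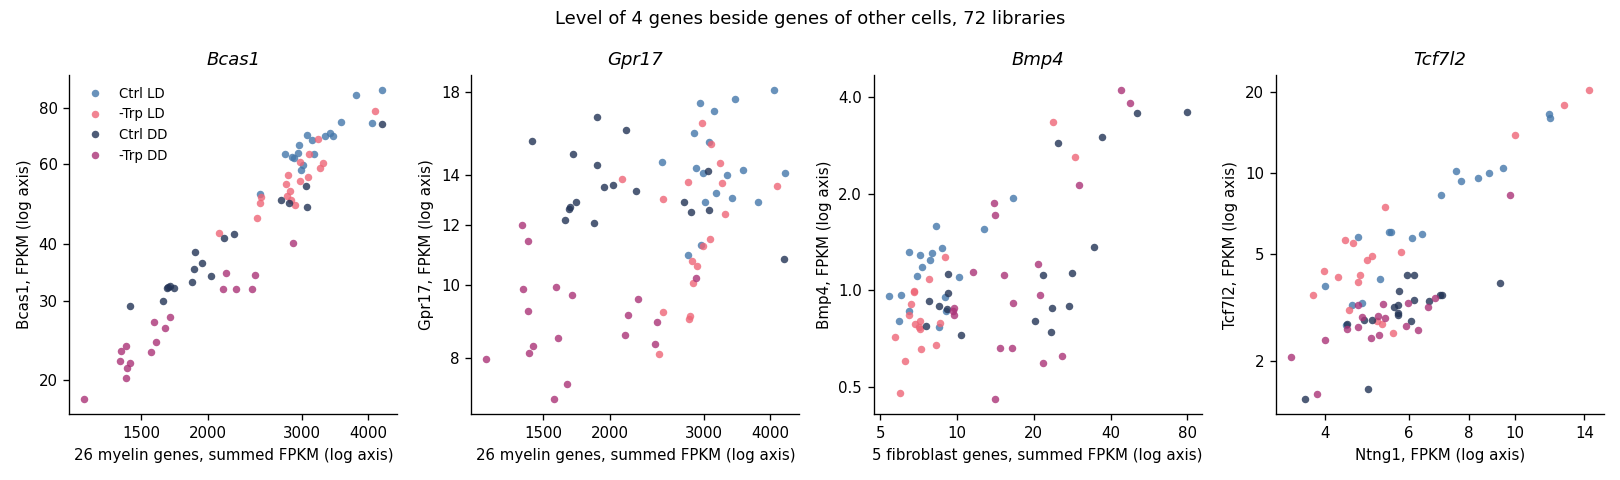
FPKM of Bcas1 and Gpr17 against the summed FPKM of 26 myelin genes, of Bmp4 against that of 5 fibroblast genes and of Tcf7l2 against Ntng1, in 72 libraries coloured by group, on log axes. Bcas1 rises with the myelin sum in all groups, Gpr17 in -Trp DD lies between 7.06 and 12.0 FPKM over myelin sums of 1173 to 2897 FPKM, and the highest Bmp4 and Tcf7l2 values sit at high fibroblast sums and high Ntng1.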

How the data were processed

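SCN RNA was sequenced from 72 libraries prepared with a stranded mRNA kit. The authors trimmed reads with Trimmomatic, used TopHat for alignment to mm10, and Cufflinks gave FPKM for every gene, per the labels and the study's methods. The deposited FPKM tables have 24883 rows and no read counts. The versions are not given in the sources used here. The study gives 3 mice for its rhythm data, and the labels do not tie a library to a mouse.

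The 8 genes and the lists were chosen with earlier results of these data known. FPKM were divided by median-of-ratios factors over all 72 libraries (0.909 to 1.083). Levels on the scale of log2(FPKM + 0.5) were compared by limma 3.58.1 (R 4.3.3) over genes averaging 0.5 FPKM or more. Benjamini-Hochberg adjustment was over all genes tested, at 0.05. The diet and light fits held time of day as a factor and 1 effect of diet or light. The interaction fit held time of day within each light schedule, diet, and diet by light. The rhythm fits held diet, a 24 h cosine and sine, and their products with diet. The diet fits used 36 libraries, and the interaction 72. JTK_CYCLE was written in Python 3.11.15 and run on FPKM as deposited. Scripts were tested on simulated data. Genes named are the 8, the 10 most like their mean, the 5 most like Gpr17 and list genes called in a diet comparison, and others are marked as named after their values were seen. Some called list genes are not reported here. Alternatives were the column names, unscaled FPKM, pseudocounts of 0.1 and 1, no filter, a filter at 1 FPKM, a replicate block, 1 fit for all libraries and leaving out each library. The fit with the myelin genes was added after seeing the data. Columns are placed as in the study's list of oscillating genes.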

Additional observations from a re-analysis of the deposited data

Results flagged for a closer look

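Of the 8 genes and the list genes, 10 had a diet difference that itself differed between LD and DD by the interaction term of limma. This term is the difference in LD minus that in DD. Over all genes 7.69% of 14425 were called by it, so the count of 10 is no evidence about the lists. For Gpr17 it was 0.28 ± 0.07 and for Cspg4 0.29 ± 0.07, and both were chosen with results in view, as were the lists. For Fyn it was 0.17 ± 0.05 (limma adjusted p = 0.0339), for Itpr2 0.19 ± 0.05 (0.0114), for Myrf 0.41 ± 0.12 (0.0297) and for Sox8 0.23 ± 0.07 (0.0207). Fyn, Itpr2, Myrf and Sox8 fell in DD and were at -0.05, -0.01, 0.03 and 0.01 in LD. Of genes of other cells that were called in neither diet comparison, the SCN gene Avp was at -1.01 ± 0.32 (limma adjusted p = 0.0370), the neuronal gene Rbfox3 at 0.41 ± 0.11 (0.0173), the endothelial gene Slco1a4 at -0.56 ± 0.17 (0.0295) and the ependymal gene Rarres2 at -0.59 ± 0.18 (0.0327). By column name the value for Gpr17 was -0.36. Groups of 3 libraries at a time are too small for a test of single outlying libraries.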

How the results depend on the processing

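Pseudocounts of 0.1 and 1, both filters, unscaled FPKM and the replicate block kept every limma count of called genes within 1.5 times the main one, with 3 called in LD and 5 in DD under the block. Replicate numbers were not taken as pairs, since the labels tie no animal or batch to them, and the deviations of same-numbered libraries of the 2 diets correlated above 0.1 in 4 of 18 pairs in LD and 12 of 18 in DD (medians -0.000462 and 0.172). In the cosinor with the replicate block 5 genes had an unadjusted p under 0.05 in -Trp LD, against 4 in the cosinor without it and 3 by JTK_CYCLE. In 1 fit for all 72 libraries 1 gene was called in the diet comparison in LD (140 of 14425 genes), and with the myelin genes in the fit 1 (325 of 14202). With the columns as named, 5 of the 8 were called for the diet in LD, against 9474 of 14461 genes. For light on the Ctrl diet 3 were called (815 of 14414 genes), and for the interaction 7 (11188 of 14425). For the difference in rhythm 4 were called in LD (7518 of 14461) and 5 in DD (4993 of 14370). Oscillating genes were 4 in Ctrl LD (9416 of 20769 rows) and 1 in -Trp LD (617 of 20889). In Ctrl DD there were 3 (6874 of 20859) and in -Trp DD 1 (1661 of 20596). By JTK_CYCLE with Benjamini-Hochberg adjustment no gene oscillated in Ctrl LD, that is 0. In Ctrl DD 1 did on median-of-ratios FPKM and 1 by the cosinor.

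Values whose sign was reversed by the column names were as follows. For the diet in LD, Bmp4 was at 0.20, Enpp6 at 0.55 and Sox10 at -0.39. For the diet in DD, Gpr17 was at 0.28, Enpp6 at 0.10, Tcf7l2 at 0.66, Bcas1 at 0.86 and Sox10 at 0.63. For the interaction Gpr17 was at -0.36, Bmp4 at 0.46, Bcas1 at -1.29 and Sox10 at -1.02. For light on the Ctrl diet Gpr17 was at 0.26 and Cspg4 at 0.083. For light on the -Trp diet Gpr17 was at -0.10, Bmp4 at 0.37, Enpp6 at 0.41, Pdgfra at 0.39, Cspg4 at 0.34, Tcf7l2 at -0.83, Bcas1 at -0.80 and Sox10 at -0.63. The cause was not tested.

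Leaving out 1 library gave 2 to 3 called genes for the diet in LD, 4 to 5 in DD, 6 for light on the Ctrl diet, 6 to 7 on the -Trp diet, 2 to 3 for the interaction and 0 for the rhythm differences, and 1, 3 to 4, 0 to 1 and 0 to 1 oscillating genes in the 4 groups in the same order. Sox10 passed the interaction threshold in 8 of 72 such fits, and Enpp6 was untested in LD at a filter of 1 FPKM. The call of Cspg4 in DD was lost without any 1 of Ctrl DD 0 h replicate 2, 4 h replicates 1 and 2, 8 h replicate 1, 16 h replicate 1 and 20 h replicate 2, or -Trp DD 0 h replicate 1, 4 h replicate 1, 8 h replicate 2, 12 h replicate 3, 16 h replicate 1 and 20 h replicate 1. With no read counts, the precision of the low genes rests on the spread between libraries alone. These were Enpp6, Bmp4 and 9630013A20Rik, which averaged 0.996, 1.27 and 0.728 FPKM.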
